A study of Mus musculus with 2 samples.

Results

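The interleukin-1 (IL-1) family mRNAs *Il1a*, *Il1b*, *Il1rn*, *Il18* and *Il33* (ligands) and *Il1r1*, *Il1r2*, *Il1rl1*, *Il18r1* and *Il1rap* (receptors) were followed through the cells of mouse colitis-associated colon tumors (CACs). These 10 genes, out of the 32291 listed in the expression table, were chosen by name as the ligands and receptors of the family, and all 10 were detected. The tumors had been induced with azoxymethane (AOM, a colon carcinogen, 10 mg/kg before the first and the second DSS period) and 3 periods of dextran sodium sulfate (DSS, which injures the colon epithelium) in the drinking water, at 2.5% in the first periods and 2% in the last. Mice entered the protocol at 6 to 10 weeks of age and were sacrificed at day 110. Single-cell RNA sequencing was performed on 1 library per genotype. The control library, labelled Mir34a_F/F, came from mice with floxed *Mir34a* alleles and no Cre. The library labelled Mir34a_Mye_KO came from mice with the same floxed alleles and LysM-Cre, which is expressed from the *Lyz2* locus in macrophages, neutrophils and part of the dendritic cells, so that deletion is not limited to macrophages and need not be complete. For each genotype 6 to 8 tumors of 3 mice were pooled. The deposited annotation gives no mouse for a cell, so each genotype is a single sample: no test between genotypes was made, and all intervals given are 95% intervals that cover counting error only. In the following text the libraries are called F/F and Mye_KO, and paired values are given in that order.

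IL-1α and IL-1β are alarm cytokines that bind IL-1R1 (*Il1r1*), which then recruits the co-receptor IL-1RAcP (*Il1rap*) to signal through MyD88 and NF-κB. IL-1RA (*Il1rn*) occupies IL-1R1 without signalling and IL-1R2 (*Il1r2*) binds IL-1 as a decoy, so the family carries its own brakes. IL-33 acts through ST2 (*Il1rl1*), which marks mast cells and a set of regulatory and type 2 T cells, and IL-18 acts through IL-18Rα (*Il18r1*) together with the accessory chain encoded by *Il18rap*. In the colon the family is known for its part in epithelial injury, repair and inflammation.

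The F/F library held 147109016 UMIs (unique molecular identifiers, each counting 1 captured mRNA molecule) in 20312 cells, and Mye_KO held 193133086 UMIs in 18571 cells. The median cell had 4787 and 7716 UMIs. A level is therefore each cell's UMIs per 10000 of its own UMIs, averaged over the cells of a type. Mye_KO was deeper in all 11 annotated cell types, by 1.11 to 5.69 times in the median, and the median mitochondrial share was higher there in all 11. A set of 96 barcodes occurred in both libraries, and leaving their cells out, an alternative chosen after seeing the data, kept the direction of all 41 ratios that lay beyond counting error. Of 62 marker mRNAs, 60 were highest in their own cell type in both libraries. The exceptions were the basophil markers *Gata2* and *Ms4a2*. The mature, hairpin and stem-loop entries of miR-34a had 0 UMIs, while the entry for its primary transcript had 0.0723 and 0.111 UMIs per 10000 in macrophages, so the deletion could not be read from these data. *Lyz2*, the locus of the Cre insertion, was 1.44 and 0.371 in macrophages and 0.245 and 0.0773 in neutrophils.

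As the genotypes differ in miR-34a, its sequence and its possible contact with the members are given first. The mature miRNAs of the RefSeq annotation (GRCm38.p6) with the same seed, which is bases 2 to 8 from the 5′ end and is shown in capitals, were:
mmu-miR-34a-5p: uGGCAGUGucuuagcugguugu
mmu-miR-34b-5p: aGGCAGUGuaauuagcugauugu
mmu-miR-449a-5p: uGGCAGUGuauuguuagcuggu
mmu-miR-449c-5p: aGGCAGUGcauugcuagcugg

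The mature miR-34a lies at chr4:150068473-150068494 on the plus strand, and these 4 miRNAs share GGCAGUG while differing in the 3′ portion. They are the entries found in the annotation used and need not be the whole family with this seed. The DNA letters that pair with this seed, CACTGCC, were present in the longest annotated 3′ UTR of 0 of the 10 members. Among all 21006 genes with an annotated 3′ UTR, 2996 (14.3%) held them. The 3′ UTRs of the members ranged from 24 bases in *Il1r2* to 3864 bases in *Il1r1*, and of genes with a 3′ UTR of a length like that of *Il1r1*, 32.7% held a match. Absence of these letters is a description of 1 annotated 3′ UTR per gene and does not bear on sites of other kinds. In the genome (GRCm38), *Il1r2* (40074079 to 40125231), *Il1r1* (40225080 to 40317257), *Il1rl1* (40429570 to 40465415) and *Il18r1* (40465552 to 40500854) lie in this order on the plus strand of chromosome 1. *Il1rn*, *Il1a* and *Il1b* are on chromosome 2, *Il18* on chromosome 9, *Il1rap* on chromosome 16 and *Il33* on chromosome 19.

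The members were spread differently over the cell types, although several shared their highest cell type. The agonists *Il1b* and *Il1a* and the antagonist *Il1rn* were highest in myeloid cells, *Il18* in epithelial cells, the receptor *Il1r1* in endothelial cells, fibroblasts and T cells, the decoy *Il1r2* in neutrophils and dendritic cells, *Il1rl1* in mast cells, *Il18r1* in T cells and *Il1rap* in neutrophils. *Il33* was the rarest member, with 1902 and 1291 UMIs in all, whereas *Il1b* was the most abundant, with 72781 and 162316.

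**Figure D1:**
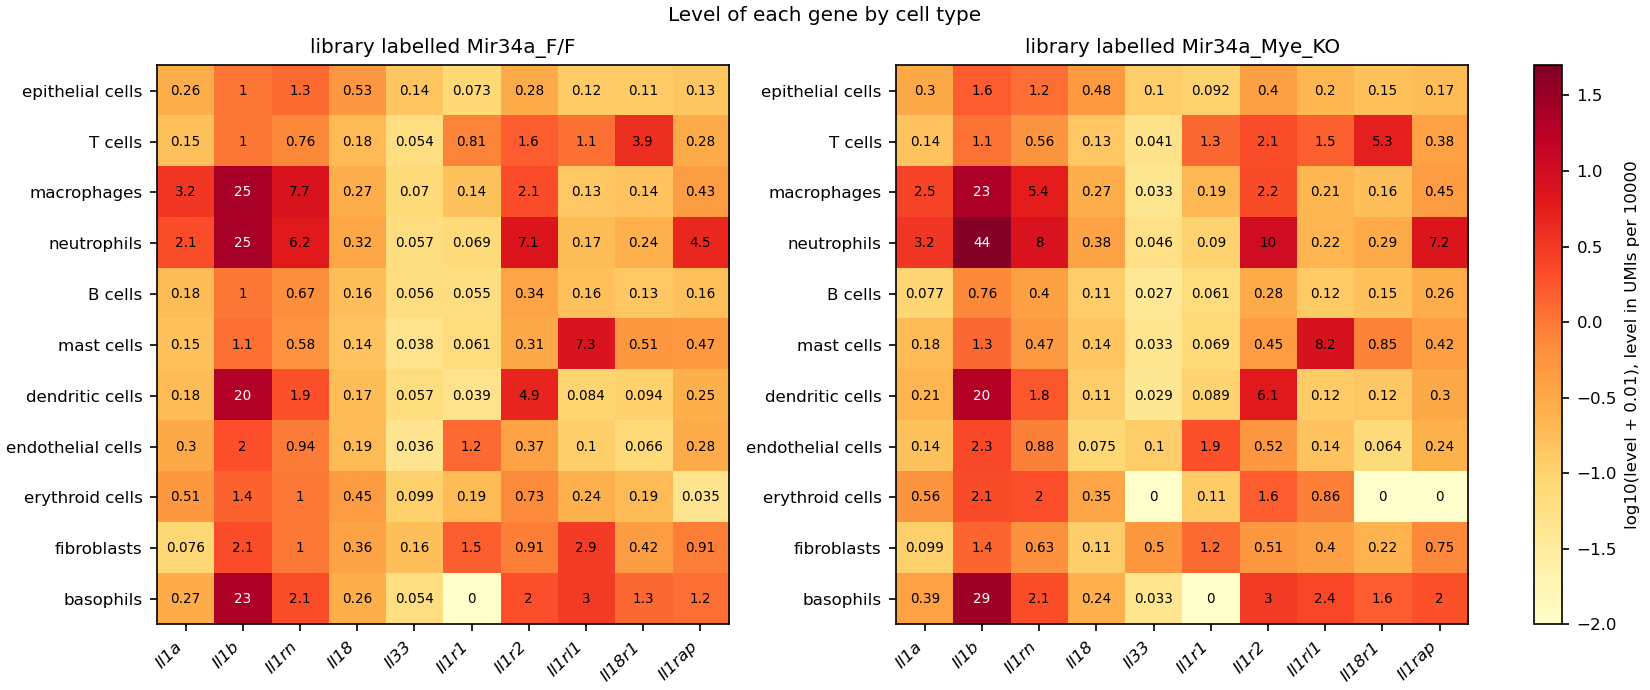
Level of each member (columns) in each annotated cell type (rows) in the F/F library (left) and the Mye_KO library (right). Colors give log10(level + 0.01) and the printed values are levels in UMIs per 10000. Among the darker fields are *Il1b* in myeloid cells, *Il1rn* in macrophages and neutrophils, *Il1r2* in neutrophils and dendritic cells, *Il1rap* in neutrophils, *Il1rl1* in mast cells and *Il18r1* in T cells, in both libraries.

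*Il1b*, which encodes the secreted agonist IL-1β, separated 4 cell types from all others. Its level was 24.8 and 44.5 in neutrophils, 23.2 and 28.8 in basophils, 24.7 and 23.2 in macrophages, and 20.2 and 19.5 in dendritic cells. No other cell type exceeded 2.28. In F/F the levels of neutrophils, macrophages and basophils could not be told apart by their counting intervals, while in Mye_KO neutrophils were above the others beyond counting error. Neutrophils showed the largest *Il1b* ratio of these cell types, with a log2 ratio of Mye_KO over F/F of 0.84 (0.81 to 0.88), or 1.79-fold. The share of neutrophils with an *Il1b* UMI was 89.6% (exact binomial interval 87.5 to 91.3) and 96.5% (95.2 to 97.5), and after every cell was thinned to 1000 UMIs it was 72.4% and 85.8%. In T cells, which served as the background for this mRNA, the level was 1.04 and 1.10 and the share 28.0% and 47.2%, or 9.59% and 8.93% after thinning. Macrophages held 62.2% and 57.9% of all *Il1b* UMIs, and neutrophils 17.6% and 25.4%. For macrophages the log2 ratio was small, at -0.09 (-0.11 to -0.07), and its direction depended on how cells were weighed, as UMIs summed over all macrophages gave 0.28. Dendritic cells had a log2 ratio of -0.05 (-0.10 to 0.00).

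*Il1a*, which encodes the agonist IL-1α, was restricted to a smaller set of cells. Macrophages had 3.23 and 2.50, and neutrophils 2.06 and 3.18, so that the order of these cell types was exchanged between the libraries. Epithelial cells had 0.264 and 0.305, and T cells, as background, 0.155 and 0.141. Dendritic cells, although close to macrophages in *Il1b*, were near the T cell level in *Il1a*, with 0.183 and 0.212. Accordingly, there were 0.00849 and 0.00814 *Il1a* UMIs per *Il1b* UMI in dendritic cells, compared with 0.135 and 0.109 in macrophages. UMIs at the 3′ end count molecules and do not grow with mRNA length, but capture may differ between mRNAs, so such ratios are compared between cell types and not read as molar ratios. The log2 ratio of *Il1a* was 0.63 (0.50 to 0.75) in neutrophils and -0.37 (-0.43 to -0.31) in macrophages. The macrophage value was -0.02 with UMIs summed over cells.

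*Il1b* and *Il1a* were next examined in cells of the same type with and without a UMI of a marker mRNA. Neutrophils with a UMI of *Cxcr2*, the chemokine receptor of mature neutrophils, had 29.6 and 50.7 *Il1b* UMIs per 10000, and those without had 20.6 and 32.6. Thus *Il1b* was higher in Mye_KO in both classes, with log2 ratios of 0.78 (0.74 to 0.82) and 0.66 (0.60 to 0.73). Neutrophils with a UMI of *Mmp9*, a gelatinase stored in their granules, had 27.5 and 49.8, and those without had 20.3 and 28.2. The share of neutrophils with a *Cxcr2* UMI was 46.8% and 65.6%, and with an *Mmp9* UMI 62.8% and 75.5%. Deeper cells show a marker UMI more often: the median depth of neutrophils was 4107 and 7330 UMIs. After thinning, neutrophils with *Cxcr2* still had more *Il1b* than those without, by 0.54 and 0.42 on the log2 scale. The 6 neutrophil markers together had a lower summed level in Mye_KO, with 1588 and 1040, of which most was *S100a8* (610 and 426) and *S100a9* (866 and 529). Of the same list, *Csf3r* (3.72 and 6.13) and *Cxcr2* (1.76 and 2.58) were higher. Further, in the same cells the macrophage markers had 10.4 and 9.21 and the epithelial markers 28.3 and 16.8, with no marker of these lists at 0. The part of these shifts in the *Il1b* result was not tested.

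Macrophages with and without *Mrc1* or *Arg1* differed in the direction of the *Il1b* ratio. For *Il1a* this held for *Mrc1* alone, with log2 ratios of 0.15 (0.06 to 0.23) with it and -0.66 (-0.74 to -0.57) without. In macrophages with and without *Arg1*, those of *Il1a* were -0.15 (-0.22 to -0.08) and -0.22 (-0.32 to -0.12). In cells with a UMI of the mannose receptor mRNA *Mrc1*, *Il1b* was 17.1 and 21.6, whereas in macrophages without it *Il1b* was 29.4 and 24.6. The log2 ratios were 0.34 (0.31 to 0.37) and -0.26 (-0.28 to -0.23). Similarly, *Il1b* was 29.0 and 33.7 in macrophages with *Arg1* (arginase 1), and 21.7 and 19.3 in those without. Cells with a UMI of *Ly6c2*, a marker of recently recruited monocytes, had 40.4 and 40.7, against 20.4 and 19.1 in those without. With and without *Nos2*, the inducible nitric oxide synthase, the log2 ratio of *Il1b* was -0.10 and -0.09, thus in the same direction. After thinning, *Il1b* was 38.7 and 38.5 in macrophages with *Ly6c2*, 32.0 and 46.0 in those with *Arg1* and 15.0 and 18.9 in those with *Mrc1*, so that the order of the *Ly6c2* and *Arg1* classes in Mye_KO depended on depth. Macrophages with *Mrc1* made up 37.7% and 47.0% of the type, and had a median depth of 10915 and 18462 UMIs, against 5854 and 6139.5 in those without. Dendritic cells with *Ccr7*, the receptor of migrating dendritic cells, held 27.3 and 28.8 *Il1b* UMIs per 10000 and those without held 14.6 and 12. These dendritic cells with *Ccr7* also had more *Il1rn* (2.85 and 2.58, against 1.22 and 1.10) and *Il1r2* (6.72 and 8.06, against 3.42 and 4.55), and all 3 differences kept their direction after thinning.

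**Figure D2:**
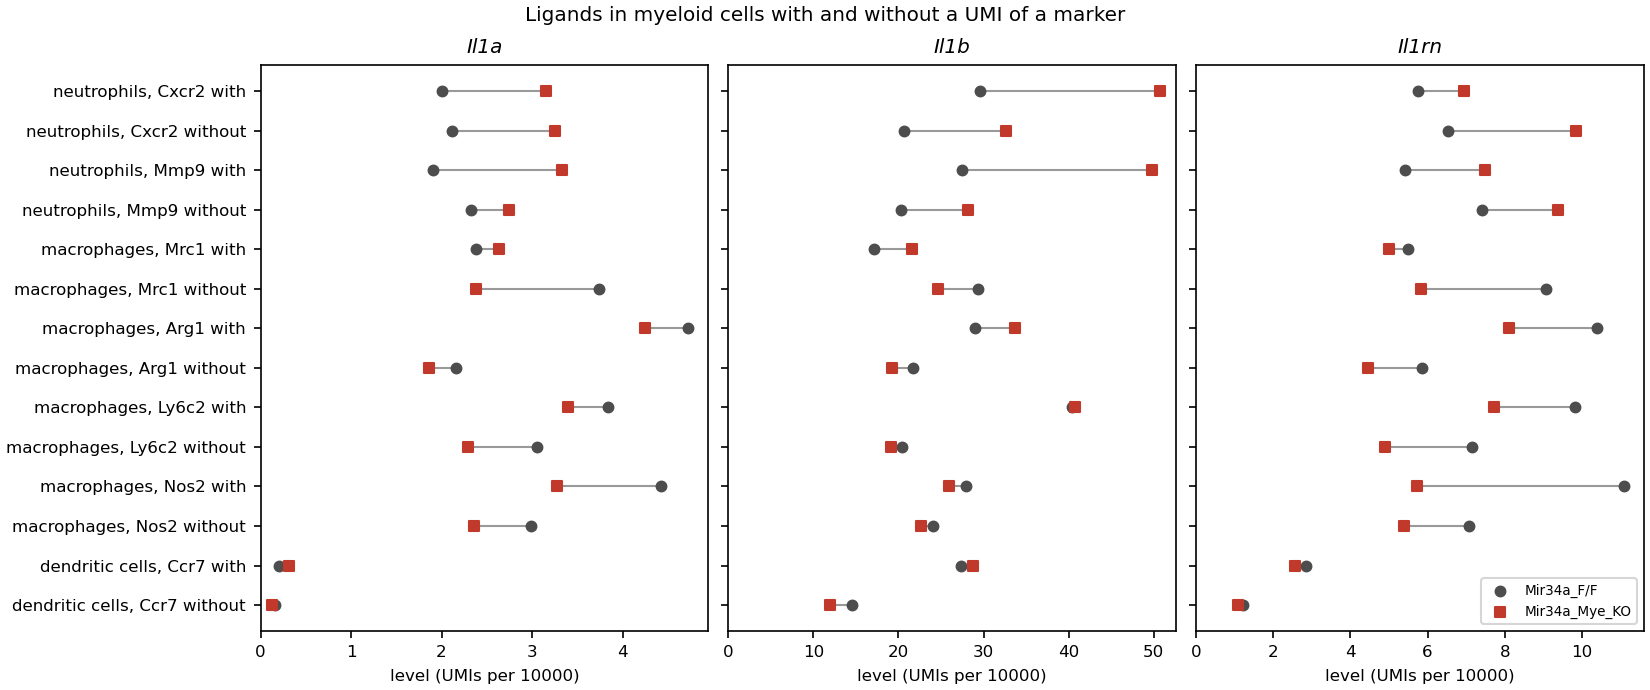
Levels of the ligands *Il1a*, *Il1b* and *Il1rn* (x axis, UMIs per 10000) in neutrophils, macrophages and dendritic cells with or without a UMI of the marker named at the left. Circles are the F/F and squares the Mye_KO library. *Il1b* is to the right in Mye_KO in all 4 neutrophil classes, and *Il1rn* to the left in all 8 macrophage classes.

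*Il1rn*, which encodes the receptor antagonist IL-1RA, was found in the same myeloid cells and in the epithelium. Levels were 7.73 and 5.44 in macrophages, 6.16 and 7.95 in neutrophils, 2.10 and 2.11 in basophils, 1.94 and 1.76 in dendritic cells and 1.27 and 1.19 in epithelial cells. T cells had 0.764 and 0.564, so that the epithelial level was only modestly above this background. Macrophages and neutrophils changed places between the libraries, with log2 ratios of -0.51 (-0.55 to -0.47) and 0.37 (0.29 to 0.44). With UMIs summed over cells the *Il1rn* log2 ratio in macrophages was -0.23. Lower *Il1rn* in Mye_KO was seen in 8 of 8 macrophage classes, which are overlapping divisions of the same cells, from 11.1 and 5.72 (log2 ratio -0.95, -1.04 to -0.87) in cells with *Nos2* to 5.50 and 5.00 (-0.14, -0.19 to -0.08) in cells with *Mrc1*. *Il1rn* was higher in cells with *Arg1*, at 10.4 and 8.10, than in those without, at 5.85 and 4.46. In epithelial cells, those with a UMI of *Krt20*, a keratin of differentiated colonocytes, had 1.64 and 1.38, and the others 1.09 and 1.10.

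Agonist and antagonist mRNA were often found in the same myeloid cell. UMIs of *Il1b* and *Il1rn* were both present in 66.6% and 81.8% of neutrophils, 67.8% and 65.0% of macrophages, and 39.5% and 43.6% of dendritic cells. These shares were close to, and in all 6 cases above, those computed from the single shares (64.5% and 81.5%, 63.0% and 59.9%, and 34.2% and 37.5%). In T cells, as background, both were present in 7.58% and 15.5%, also above the computed 6.23% and 14.3%. The excess was thus not particular to myeloid cells. After thinning, which was tried after seeing the data, the shares were 27.6% and 37.4% of neutrophils, 27.5% and 24.3% of macrophages, 11% and 9.05% of dendritic cells and 0.932% and 0.492% of T cells, so that a majority was reached at full depth alone. The computed shares were then 26.9% and 36.2% in neutrophils and 22.5% and 19.3% in macrophages. They were 8.51% and 5.67% in dendritic cells and 0.699% and 0.446% in T cells. The balance was compared by UMIs of *Il1rn* per UMI of *Il1b* summed over the same cells. Depth cancels within a cell, but deeper cells weigh more in the sums. It was 0.312 (0.306 to 0.318) and 0.219 (0.215 to 0.222) in macrophages, and 0.230 (0.221 to 0.239) and 0.166 (0.162 to 0.171) in neutrophils. Therefore the antagonist was lower relative to the agonist in Mye_KO in both cell types, though of these *Il1rn* itself was lower in macrophages alone. The shift was not particular to them: T cells, the background for both mRNAs, had 0.707 and 0.480, and mast cells 0.660 and 0.312. Dendritic cells (0.0959 and 0.0775) and basophils (0.0991 and 0.0872) had the lowest ratios. Epithelial cells had the highest ratios, with 1.83 and 1.27. As a ratio of means over cells these were 1.24 and 0.755, the second below the value of erythroid cells (0.935, on 15 and 16 UMIs).

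**Figure D3:**
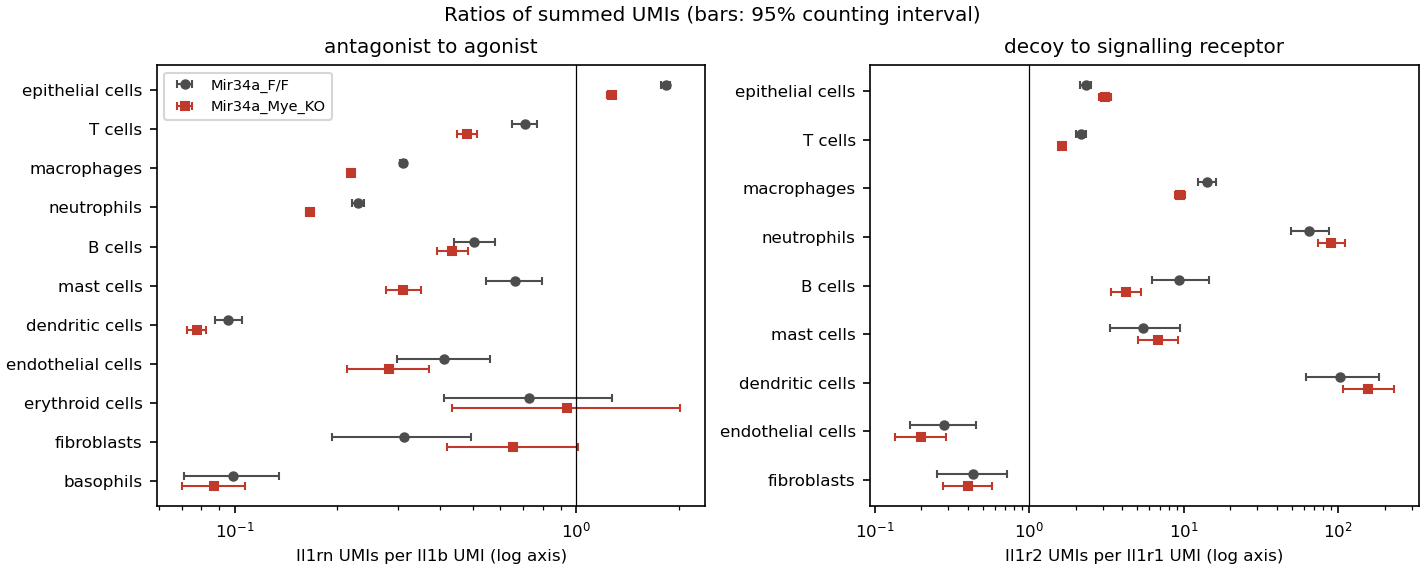
UMIs of the antagonist *Il1rn* per UMI of the agonist *Il1b* (left) and of the decoy *Il1r2* per UMI of the receptor *Il1r1* (right) in each cell type, on log axes. Circles are the F/F and squares the Mye_KO library, with 95% counting intervals as bars. The vertical line marks equal UMI counts, not equal amounts of mRNA. Epithelial cells have the highest values on the left in both libraries, and endothelial cells and fibroblasts the lowest on the right.

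*Il18* and *Il33* encode alarmins that barrier tissue stores and releases on injury. Epithelial cells held 84.0% and 71.5% of *Il18* UMIs, at a low level of 0.526 and 0.476, compared with 0.185 and 0.127 in T cells. An *Il18* UMI was found in 26.5% of epithelial cells in both libraries and in 6.12% and 8.42% of T cells. After thinning these shares were 5.16% and 4.96%, and 1.83% and 1.44%. Epithelial cells could not be separated from erythroid cells (0.450 and 0.347), which rested on 10 and 4 UMIs and whose counting intervals contain the epithelial levels. Epithelial cells with *Krt20* had more *Il18* (0.713 and 0.549) than those without (0.433 and 0.439). The log2 ratio in epithelial cells was -0.15 (-0.23 to -0.06), but this is above the median of all genes in these cells, which was -0.22. When mitochondrial, immunoglobulin and rRNA-like genes were taken out of the totals, the ratio was 0.12 and the median of all genes 0.03. *Il18* was thus not shown to be lower in Mye_KO.

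*Il33* was near the detection limit in all cell types. Epithelial cells held 84.6% and 71.7% of its UMIs at a level of 0.135 and 0.104, and T cells had 0.0541 and 0.0414. Per cell, fibroblasts were highest, with 0.164 and 0.501, yet this rested on 3 and 36 UMIs in 57 and 60 cells, of which 11 in Mye_KO came from 1 cell. The interval of their ratio, 1.61 (-0.28 to 4.44), includes 0, so that the depth did not allow a difference to be seen. In epithelial cells the log2 ratio of *Il33* was -0.38 (-0.57 to -0.19), and -0.07 with the totals that left out the same genes. Macrophages had 0.0700 and 0.0328, and their counting intervals overlapped those of T cells.

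*Il1r1*, which encodes the signalling receptor for both agonists, was mainly found outside the myeloid cells. Endothelial cells had 1.25 and 1.94, fibroblasts 1.52 and 1.25, and T cells 0.812 and 1.32. Endothelial cells were above T cells beyond counting error in both libraries, whereas fibroblasts could not be told apart from endothelial cells and, in Mye_KO, from T cells. T cells were above the next type, macrophages (0.145 and 0.192), in both libraries. B cells, as background, had 0.0548 and 0.0615. Basophils had 0 UMIs in both libraries, which allows a level of up to 0.189 and 0.082 (the upper ends of the exact intervals). T cells held 46.3% and 61.6% of all *Il1r1* UMIs. A UMI was found in 17.6% (16.3 to 19.0) and 28.9% (27.2 to 30.6) of T cells and in 2.55% and 5.08% of B cells. After thinning these shares were 6.42% and 9.77%, and 0.430% and 0.325%. Of the 3 types with the highest levels, the log2 ratio of *Il1r1* was 0.70 (0.59 to 0.82) in T cells, 0.63 (0.17 to 1.11) in endothelial cells and -0.28 (-0.96 to 0.42) in fibroblasts. It was 0.40 (0.12 to 0.70) in macrophages and 0.33 (0.08 to 0.58) in epithelial cells, where the level was 0.0731 and 0.0920 and UMIs summed over cells gave -0.13. A ratio of 1.18 (0.03 to 2.39) in dendritic cells rested on 15 and 30 UMIs and was -0.15 with UMIs summed over cells.

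*Il1r2*, the decoy receptor, was highest in other cell types than *Il1r1*. Neutrophils had 7.06 and 10.2, dendritic cells 4.86 and 6.11, basophils 1.99 and 2.98, macrophages 2.06 and 2.17, and T cells 1.60 and 2.07. Neutrophils were above dendritic cells, and dendritic cells above basophils, in both libraries, whereas basophils, macrophages and T cells were not separated in the same way in both: macrophages were above T cells in F/F, and basophils above macrophages and T cells in Mye_KO. An *Il1r2* UMI was found in 76.7% (74.1 to 79.3) and 86.6% (84.5 to 88.6) of neutrophils and in 12% and 24.2% of B cells, and after thinning in 43.5% and 51.7%, and 3.22% and 2.39%. The log2 ratio was 0.53 (0.47 to 0.60) in neutrophils, 0.33 (0.23 to 0.43) in dendritic cells, 0.37 (0.29 to 0.46) in T cells and 0.07 (-0.01 to 0.15) in macrophages. There were 65.0 (49.5 to 86.9) and 89.5 (73.6 to 110) decoy UMIs per *Il1r1* UMI in neutrophils (102 and 113 as a ratio of means over cells), and 103 and 155 in dendritic cells (124 and 68.7 as a ratio of means), although their *Il1r1* UMIs (53 and 102, and 15 and 30) were few and at levels whose counting intervals overlapped those of B cells. Macrophages had 14.1 (12.4 to 16.2) and 9.46 (8.79 to 10.2), and T cells 2.17 (2.02 to 2.33) and 1.62 (1.55 to 1.69). Endothelial cells, with 0.280 and 0.201, and fibroblasts, with 0.434 and 0.402, had the lowest ratios.

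T cells were divided by UMIs of lineage markers, each class leaving out the cells of the classes named before it. *Foxp3* marks regulatory T cells, *Il17a* interleukin-17 producing cells, *Gata3* type 2 and some regulatory cells, and *Cd8a* cytotoxic cells. *Il1r1* was highest in cells with *Il17a*, at 1.85 and 2.99. Cells with none of the markers, which made up 45.2% and 28.2% of T cells, had 0.627 and 0.924, cells with *Foxp3* 0.436 and 0.878, and cells with *Gata3* 0.356 and 0.390. In cells with *Cd8a* it was nearly absent, with 1 and 2 UMIs. Within the *Il17a* class, *Il1r1* was 3.22 and 3.84 in cells that also had *Trdc*, the γδ receptor constant chain, and 1.61 and 2.84 in those without. *Il1r2* went the other way, with 1.23 and 0.985 in the first and 3.32 and 4.10 in the second. The UMIs of *Il1r1* and *Il1r2* were 154 and 65 in F/F and 391 and 151 in Mye_KO in γδ-marked cells, and 492 and 1065, and 1718 and 2646, in the other *Il17a* cells, so that the decoy was lower relative to the receptor in the first. The log2 ratio of *Il1r1* was 0.70 (0.56 to 0.84) in the *Il17a* class, 1.01 (0.65 to 1.39) in the *Foxp3* class and 0.56 (0.30 to 0.82) in cells with none of the markers, but 0.13 (-0.39 to 0.68) in the *Gata3* class. The *Il17a* class was 22.5% and 26.3% of T cells and the *Foxp3* class 15.1% and 22.6%, shares that grow with depth (median of T cells 3548 and 8043 UMIs). The contrast between T cells with and without *Il17a* remained after thinning, at 1.86 and 2.26 for *Il1r1* on the log2 scale.

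*Il1rl1*, which encodes the IL-33 receptor ST2, marked other T cells than *Il1r1*. In cells with *Foxp3* it was 3.21 and 3.64, in cells with *Gata3* 1.68 and 1.94, and in cells with *Il17a* 0.301 and 0.375. Correspondingly, 1.10% and 4.45% of T cells had UMIs of both *Il1rl1* and *Il1r1*, less than the 2.62% and 7.06% computed from the single shares. For *Il1r1* and *Il1r2*, by contrast, 6.99% and 14.1% of T cells had both, above the computed 4.48% and 10.7%. After thinning the observed and computed shares were 0.200% and 0.479% in F/F and 0.341% and 0.909% in Mye_KO for *Il1rl1* with *Il1r1*, and 1.30% and 0.678%, and 2.04% and 1.35%, for *Il1r1* with *Il1r2*. In B cells, as background, *Il1r1* and *Il1r2* were both found in 0.636% and 1.51%, also above the computed 0.305% and 1.23%. With thinned cells no B cell had both. *Il18r1* was spread more evenly, with 3.4 and 4.88 (*Foxp3*), 4.99 and 6.30 (*Il17a*) and 3.90 and 5.34 (*Gata3*), but only 1.35 and 1.49 in cells with *Cd8a*. Its log2 ratio was between 0.34 and 0.52 in all classes except the *Cd8a* class, where it was 0.15 (-0.31 to 0.63).

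**Figure D4:**
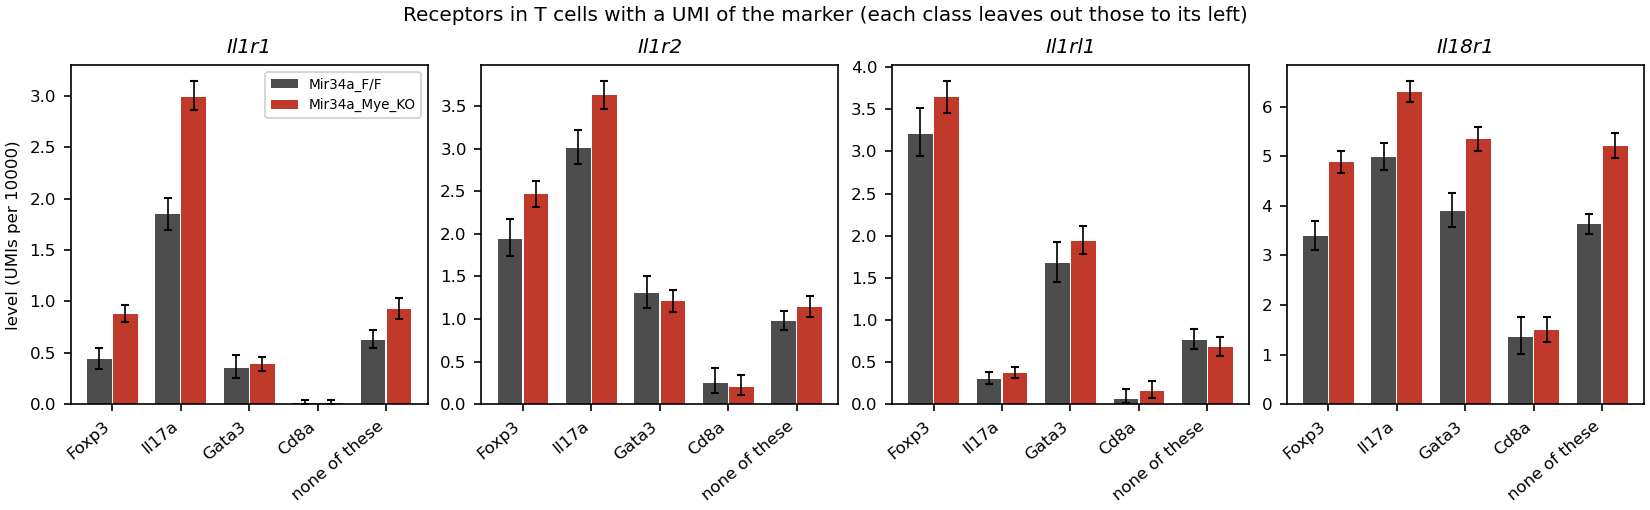
Levels (y axes, UMIs per 10000) of *Il1r1*, *Il1r2*, *Il1rl1* and *Il18r1* in T cells with a UMI of the marker on the x axis, where each class leaves out the cells of classes to its left. Dark bars are the F/F and red bars the Mye_KO library, and error bars are 95% counting intervals. *Il1r1* peaks in the *Il17a* class and *Il1rl1* in the *Foxp3* class, in both libraries.

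Over all cell types, *Il1rl1* was highest in mast cells, with 7.33 and 8.16, and next in basophils, with 2.97 and 2.39. The basophil level rested in part on cells that also hold neutrophil and mast cell mRNAs, as given below. T cells as a whole had 1.13 and 1.48, and epithelial cells, as background, 0.115 and 0.205. A UMI was found in 77.9% (74.7 to 80.8) and 90.6% (88.3 to 92.5) of mast cells and in 4.80% and 8.50% of epithelial cells. After thinning these shares were 49.3% and 50.8%, and 0.856% and 1.95%. The log2 ratio in mast cells was small, 0.16 (0.07 to 0.25), and -0.32 when cell types were assigned by marker score. Fibroblasts had 2.87 and 0.397, but 140 of the 186 UMIs in F/F came from 1 cell, which also held 176 UMIs of epithelial markers beside 112 of fibroblast markers. Without the cell of most *Il1rl1* UMIs in each library, which was tried after seeing the data, the levels were 1.76 and 0.354.

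Mast cells, basophils and T cells with *Gata3*, among the cells in which *Il1rl1* was found, are known to depend on GATA factors. The windows from 250 bases before to 50 bases after the annotated starts of the members (RefSeq, GRCm38.p6) were therefore searched for AGATAA or TGATAA on both strands. Both starts of *Il1rl1* held the motif, with 2 and 1 matches, and the start of *Il1r2* held 1, whereas the windows of the other members held none. Of all 32851 windows, 18.6% hold it. The 30 bases around each *Il1rl1* match on the plus strand, shown to let a reader see the motif (in capitals, the third on the minus strand), were:
chr1:40429341-40429370: gaaggtccatggAGATAAgggtaaaactgg
chr1:40429478-40429507: ctgtaaagtaacTGATAAggaaacagggag
chr1:40439514-40439543: aaacagcattgtTTATCTcagcttcactga

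Their positions are -217 and -80 from the first start and -103 from the other. No binding was measured, and a match is a description of the letters only.

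*Il18r1*, the ligand-binding chain of the IL-18 receptor, was the most T cell-restricted member: T cells held 76.3% and 80.7% of its UMIs. The level was 3.85 and 5.29 in T cells, 1.31 and 1.59 in basophils and 0.511 and 0.853 in mast cells, against 0.114 and 0.149 in epithelial cells. T cells were above basophils, and basophils above mast cells, in both libraries. An *Il18r1* UMI was found in 51.7% (49.9 to 53.5) and 73.5% (71.8 to 75.2) of T cells and in 4.51% and 6.49% of epithelial cells, and after thinning in 26.3% and 33.5%, and 0.919% and 1.45%. The log2 ratio was 0.46 (0.40 to 0.52) in T cells and 0.74 (0.40 to 1.10) in mast cells. *Il18rap*, which encodes the accessory chain, had 0.978 and 1.55 in T cells, with a log2 ratio of 0.67 (0.55 to 0.78), and was highest in basophils, with 3.44 and 2.13.

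The basophil values require caution, since this annotated type holds cells of different kinds. By *S100a9*, a neutrophil mRNA, its 88 cells fell into 56 with up to 43.3 UMIs per 10000 and 32 with 107 or more. Of the former, 41 had a UMI of the basophil protease *Mcpt8*, and of the latter 1. This division was made after the values were seen. In the cells low in *S100a9*, *Il1b* remained high at 24.0 and 30.9 (log2 ratio 0.37, 0.14 to 0.60) and *Il18r1* reached 1.79 and 2.57, while *Il1rn* was 0.853 and 0.868, *Il1r2* 1.13 and 0.354 and *Il1rap* 0.788 and 0.432. The cells high in *S100a9* had 21.5 and 26.3 for *Il1b*, 0.127 and 0.382 for *Il18r1*, 5.12 and 3.63 for *Il1rn*, 4.09 and 6.18 for *Il1r2* and 2.18 and 3.84 for *Il1rap*. Thus most *Il18r1* of the type was in the cells low in *S100a9*, and most *Il1rn*, *Il1r2* and *Il1rap* in the others. These other cells also had *Mcpt1* at 78.1 and 188, a mast cell protease, so that their *Il1rl1* (3.65 and 3.94) occurred beside mRNAs of both neutrophils and mast cells. In the cells low in *S100a9*, *Il1rl1* was 2.69 and 1.12, on 28 and 19 UMIs. The Mye_KO value (0.631 to 1.82) could not be told apart from that of T cells (1.48).

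*Il1rap*, the co-receptor shared by the receptors for IL-1, IL-33 and IL-36, was highest in neutrophils, with 4.55 and 7.16, above all other types in both libraries. Basophils had 1.19 and 1.96, fibroblasts 0.909 and 0.749, macrophages 0.427 and 0.446 and T cells 0.279 and 0.379. B cells, as background, had 0.158 and 0.260. Neutrophils thus had a high level of the co-receptor and the decoy but not of *Il1r1*, which was 0.0694 and 0.0901 there. An *Il1rap* UMI was found in 65.1% (62.2 to 68.0) and 80.0% (77.5 to 82.4) of neutrophils and in 8.27% and 26.1% of B cells, and after thinning in 31.4% and 43.4%, and 1.83% and 3.36%. The log2 ratio in neutrophils was 0.65 (0.57 to 0.73), and it was 0.54 (0.44 to 0.64) and 0.65 (0.50 to 0.80) in neutrophils with and without *Cxcr2*.

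Finally, the direction of the members was compared with that of all genes having a level of at least 0.1 in a library, in 7 of the 11 cell types, of which B cells were added after their values were seen. In neutrophils 8 of 8 members above this level were higher in Mye_KO, beside 37.4% of all genes. For 3 of these 8 (*Il18*, *Il1rl1* and *Il18r1*) the counting interval of the ratio included 0. The counts were 5 of 9 in macrophages (41.1% of all genes), 5 of 8 in dendritic cells (50.4%), 6 of 9 in T cells (40.1%), 5 of 8 in mast cells (36.7%), 6 of 9 in epithelial cells (12.3%) and 2 of 8 in B cells (20.5%). A level of 0.1 was needed in 1 library only, for members and for all genes alike. In dendritic cells *Il1rl1* (0.0835 and 0.115) and *Il18r1* (0.0939 and 0.125) passed through Mye_KO alone. They could therefore only be counted as higher. Beyond counting error, of all 10 members, 2 were higher and 4 lower in macrophages, and 2 and 0 in dendritic cells. These numbers were 5 and 2 in T cells, 3 and 0 in mast cells, 7 and 3 in epithelial cells and 1 and 3 in B cells. The same was not counted for all genes, so these numbers do not set the members apart from other genes. Among members with a level of at least 0.1, the 1 past a fold of 2 in these cell types was *Il1a* in B cells, with 0.177 and 0.0775 (log2 ratio -1.19, -1.94 to -0.47). It passed this level in F/F alone, so it could only be counted as lower. The median log2 ratio of the members was 0.45 in neutrophils, 0.06 in macrophages, 0.23 in dendritic cells, 0.37 in T cells, 0.18 in mast cells, 0.38 in epithelial cells and -0.42 in B cells, while that of all genes was -0.15, -0.06, 0.00, -0.09, -0.13, -0.22 and -0.34. The background depends on the totals: when the same genes were taken out of the totals, 57.1% of all genes and 8 of 9 members were higher in epithelial cells, and 58.1% and 6 of 9 in macrophages. In neutrophils these were 45.1% and 8 of 8, and in B cells 46.4% and 3 of 8. In epithelial cells, *Il1b* (1.02 and 1.58), *Il1r2* (0.280 and 0.400) and *Il1rl1* (0.115 and 0.205) had the highest ratios, with 0.62 (0.55 to 0.70), 0.51 (0.37 to 0.66) and 0.83 (0.61 to 1.06). Those 3 mRNAs are far higher in other cell types, and the markers of macrophages (8.93 and 9.83) and mast cells (6.04 and 9.41) had higher summed levels in the epithelial cells of Mye_KO, those of neutrophils not (11.6 and 11.5). The median mitochondrial share of epithelial cells was 11.2% and 18.3%, and 70.2% and 47.9% of them kept this type by marker score. The part of these differences in the result was not tested.

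**Figure D5:**
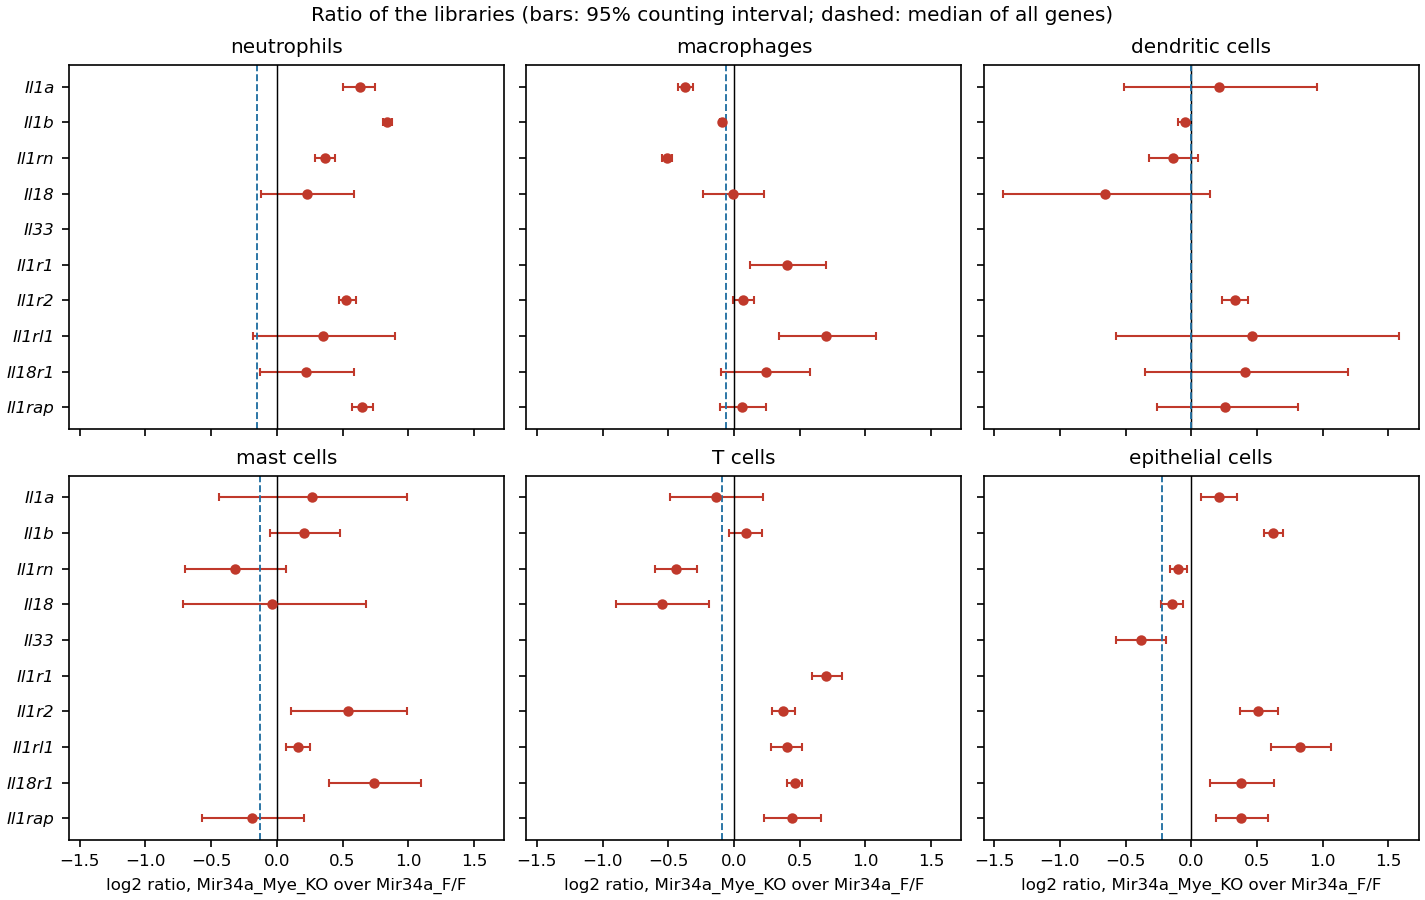
Log2 ratio of the level in Mye_KO over F/F (x axis) for each member with a level of at least 0.1 in a library, in 6 cell types. Points are ratios, bars are 95% counting intervals, the solid line marks 0 and the dashed line the median of all genes of the cell type. All 8 points of neutrophils lie to the right of both lines, whereas those of macrophages lie on both sides.

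Other genes of the pathway were described from 3 lists. Of the other family members and receptors, 11 of 15 names were in the table and only *Il1f9* and *Il18rap* reached a level of 0.5 in a cell type in both libraries. *Il1f9*, which encodes the agonist IL-36γ, was found in neutrophils, with 6.41 and 8.10 (log2 ratio 0.34, 0.27 to 0.41). Of the 17 signalling genes, 12 of 16 with a level of at least 0.1 in a library were higher in Mye_KO in neutrophils (37.4% of all genes), 12 of 17 in T cells (40.1%) and 13 of 16 in dendritic cells (50.4%). The counts were 7 of 16 in macrophages (41.1%) and 7 of 17 in mast cells (36.7%), near the share of all genes. In epithelial cells 1 of 16 was higher (12.3%), which was *Nfkb1*. The highest levels were those of *Nfkb1*, *Nfkbia* and *Nfkbiz* in basophils (18.7 and 22.9, 15.6 and 14.5, and 12.4 and 14.4). *Nfkb1* encodes a subunit of NF-κB, which induces *Nfkbia*, its inhibitor, and *Nfkbiz*, a related regulator. In neutrophils *Nfkb1* was 7.82 and 15.3 (log2 ratio 0.97, 0.91 to 1.03) and *Nfkbia* 9.39 and 12.6. Past a fold of 2 at a level of at least 0.5 in both libraries were *Nfkb1* in erythroid cells (1.73 and 3.86, on 33 and 40 UMIs) and *Tollip*, an adaptor that restrains IL-1 receptor signalling, in basophils (1.37 and 0.643, on 26 and 27 UMIs). *Irak2*, a kinase of the receptor complex, reached that level in 1 library in fibroblasts (0.742 and 0.301, on 17 and 18 UMIs), with a log2 ratio of -1.30 (-2.97 to 0.44).

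Of the 13 genes for release and maturation, 4 of 11 were higher in Mye_KO in neutrophils, 6 of 12 in macrophages, 7 of 12 in dendritic cells, 2 of 11 in T cells, 3 of 11 in mast cells and 3 of 11 in epithelial cells, beside 37.4%, 41.1%, 50.4%, 40.1%, 36.7% and 12.3% of all genes. The count in neutrophils is thus near that of all genes. *Nlrp3*, the inflammasome sensor upstream of IL-1β cleavage, was 6.33 and 11.6 in neutrophils (log2 ratio 0.88, 0.81 to 0.95), 3.61 and 4.47 in macrophages and 11.1 and 12.2 in basophils. *Casp4*, an inflammatory caspase, was 2.83 and 4.47 in neutrophils (0.66, 0.55 to 0.77). It was past a fold of 2 in basophils (1.02 and 2.09, on 24 and 92 UMIs), with a log2 ratio of 1.03 (0.30 to 1.81). *Aim2*, a DNA sensor, reached a level of 0.5 in 1 library in erythroid cells (0.453 and 1.08, on 14 and 7 UMIs), with a log2 ratio of 1.25 (-0.62 to 2.86). The pore-forming *Gsdmd* was highest in epithelial cells, with 1.75 and 1.28 (-0.45, -0.50 to -0.40), and lower in neutrophils, with 0.690 and 0.484 (-0.51, -0.77 to -0.25).

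Likeness of pattern was measured by Pearson's r of log2(level + 0.1) over the 22 points of 11 cell types in 2 libraries, among 5720 genes. Points of a library share its depth, so r is given as a description. Among the members, *Il1a* and *Il1rn* (0.912), *Il1b* and *Il1rn* (0.869), and *Il1b* and *Il1r2* (0.841) were most alike, and *Il1rl1* and *Il18r1* had 0.647. Among all genes, *Ptafr* (0.962), *Fgr* and *Slc7a11* were closest to *Il1b*, *Lrrc25* (0.937), *Mefv* and *Ehd1* to *Il1rn*, and *Plin2* (0.925), *Ckap2l* and *Il1rn* to *Il1a*. *Il18* was closest to *Gss* (0.882), *Fam83e* and *Mapk13*, and *Il33* to *Cacna1c* (0.899), *Pdzrn3* and *Entpd2*. Among the receptors, the closest genes were *Iigp1* (0.912), *Gbp4* and *Tgfbr3* for *Il1r1*, *Snx20* (0.913), *Antxr2* and *Rhog* for *Il1r2*, *Txk* (0.922), *Prkcq* and *Rbl2* for *Il18r1*, and *Tmem38b* (0.931), *Resf1* and *Tmcc1* for *Il1rap*.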

How the data were processed

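The authors made 10x 3′ v3.1 libraries, counted reads with Cell Ranger 7.2.0 against mm10, removed doublets with Scrublet and normalized with LogNormalize of Seurat. The values deposited by the authors are the natural log of 1 plus UMIs per 10000. The log was undone and values were divided by the smallest of the cell, which gave whole UMIs for 38883 cells (largest deviation 1.5e-10). Library and cell type of each cell were taken from the deposited annotation. The filter stated by the study (more than 200 expressed mRNAs, under 25% mitochondrial content) would leave 17842 and 14441 of these cells. All deposited cells were used.

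A level averages the UMIs per 10000 of single cells, and the log2 ratio of levels was taken where a gene had at least 20 UMIs in both together. Intervals at 95% were exact Poisson, binomial and conditional binomial. Those of levels and ratios used effective UMI numbers, the squared sum of the cell weights of the UMIs over the sum of their squares, in place of summed UMIs, because intervals from summed UMIs were too narrow on simulated data. With 1 library per genotype no p-value was computed. Where no UMI was found, the limit is the upper end of the exact Poisson interval. The members and gene lists were chosen with earlier results of these data known. Of the pathway lists, the 3 genes of highest level and those past a fold of 2 where a library reached a level of at least 0.5 were named, and for each member the 3 most alike, which are not reported here for *Il1rl1*. *Il18rap*, *Nfkb1*, *Nfkbia*, *Nlrp3*, *Casp4* and *Gsdmd* were followed into neutrophils, T cells or macrophages after their values were seen, as were combined T cell classes and joint shares.

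Alternatives were UMIs summed over cells, stricter cell filters, totals that left out 411 genes (mitochondrial, immunoglobulin and rRNA-like), a pseudocount of 0.1, cells thinned to 1000 UMIs, subtraction of a background cell type, and cell types by marker score. For *Il1r2* the subtracted type was T cells, which had 1.60 and 2.07 themselves, so that the subtraction can also remove signal. Python 3.11.15, numpy 2.4.6, scipy 1.17.1, pandas 2.3.3 and matplotlib 3.10.9 were used. Gene positions and 3′ UTRs came from the GENCODE annotation of GRCm38.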

Additional observations from a re-analysis of the deposited data

Results flagged for a closer look

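In 3 mRNAs, the log2 ratio of Mye_KO over F/F had opposite signs in neutrophils and B cells, each beyond counting error. These were *Il1a* (0.63 and -1.19), *Il1b* (0.84 and -0.43) and *Il1rn* (0.37 and -0.76). The pattern was not particular to B cells: in macrophages the ratios were -0.37, -0.09 and -0.51, also beyond counting error. The direction of *Il1b* in macrophages depended on how cells were weighed, as given above. The differences between the cell types were not tested. Of all genes, 37.4% were higher in Mye_KO in neutrophils and 20.5% in B cells. The share of all genes with opposite signs was not computed, so these 3 are not set apart from other genes. Levels in B cells were 0.177 and 0.0775 for *Il1a*, 1.02 and 0.763 for *Il1b*, and 0.668 and 0.395 for *Il1rn*, beside 0.155 and 0.141, 1.04 and 1.10, and 0.764 and 0.564 in T cells, the background cell type. In Mye_KO the B cell levels of all 3 were below those of T cells beyond counting error. In F/F the counting intervals of B cells and T cells overlapped for all 3. The median log2 ratio of all genes in B cells was -0.34, and -0.04 with mitochondrial, immunoglobulin and rRNA-like genes left out of the totals.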

How the results depend on the processing

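No paired analysis was possible because each genotype has 1 library. Of 41 ratios beyond counting error, 38 kept their direction with UMIs summed over cells, 40 under either cell filter, 39 with smaller totals (mitochondrial, immunoglobulin and rRNA-like genes left out), 38 after thinning, 41 with a pseudocount, 35 with cell types by marker score, and 22 of 26 after subtraction of background. Of 96 ratios, 22 moved beyond their counting interval with summed UMIs, 23 with smaller totals and 29 with marker scores, as did 21 of 91 after thinning and 24 of 59 after subtraction of background. Not in these counts is *Il1r1* in dendritic cells. Its ratio also left its interval with summed UMIs, marker scores and thinning, with its sign reversed. Among the ratios of the members in their main cell types, those that moved were, with summed UMIs, *Il1a* in macrophages (-0.02), *Il1b* (0.90) and *Il1r2* (0.62) in neutrophils, *Il33* in epithelial cells (-0.71) and *Il1rl1* in mast cells (0.28). With the smaller totals they were *Il1a* in macrophages (-0.29), *Il1b* (0.93), *Il1rn* (0.45), *Il1r2* (0.62) and *Il1rap* (0.75) in neutrophils, *Il18* (0.12) and *Il33* (-0.07) in epithelial cells and *Il18r1* in T cells (0.54). With marker scores they were *Il1a* in macrophages (-0.18), *Il1b* (0.91), *Il1rn* (0.44), *Il1r2* (0.70) and *Il1rap* (0.80) in neutrophils, *Il18* in epithelial cells (0.02) and *Il1rl1* in mast cells (-0.32). Thinning moved *Il1r1* (0.83) and *Il18r1* (0.53) in T cells, the stated filter *Il18* (-0.05), the strict filter *Il1b* in neutrophils (0.88), and background subtraction *Il1rn* in neutrophils (0.45) and *Il18* in epithelial cells (0.03). Of 40 ratios of UMIs between mRNAs, 19 moved with means over cells. Means over cells gave *Il1rn* to *Il1b* ratios of 0.235 in Mye_KO macrophages and 0.248 and 0.179 in neutrophils, and *Il1r2* to *Il1r1* ratios of 1.97 in F/F T cells and 102 and 113 in neutrophils. *Il1r1* in dendritic cells reversed with summed UMIs (-0.15), thinning (-0.90) and marker scores (-0.25). The cause was not tested. With summed UMIs the log2 ratios in macrophages were 0.28 for *Il1b* and -0.23 for *Il1rn*. *Il1rn* in epithelial cells also changed sign, from -0.10 to 0.17 with the smaller totals. With a level of at least 0.5 instead of 0.1, 309 instead of 1142 genes were higher in Mye_KO in epithelial cells, 1958 instead of 3703 in T cells, 1565 instead of 3649 in macrophages, 1475 instead of 3027 in neutrophils, 1400 instead of 3262 in mast cells, 1852 instead of 4394 in dendritic cells and 691 instead of 1806 in B cells, as fewer genes were counted. The cell type of highest level changed for *Il1rn* (to macrophages with summed UMIs and marker scores), *Il33* (to epithelial cells with thinning and marker scores) and *Il1r1* (to T cells with marker scores). By Spearman correlation the most alike genes changed for 8 of 10 members. Of 390 contrasts between cells with and without a marker UMI, 203 moved when the marker UMI was sought after thinning. Splits by marker given without thinned values, such as those by *Krt20*, may therefore depend on depth.

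Depth limits *Il33* in all cell types, *Il1r1* in myeloid cells, and all members in basophils, fibroblasts and erythroid cells, of which there were 30 to 106 per library. A difference between genotypes cannot be told apart from one between the pooled mice, the dissociations or the libraries.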
